A study of Mus musculus with 4 samples.

Results

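Neurexins are presynaptic membrane proteins, neurexophilins are secreted glycoproteins that bind alpha-neurexins, and the Caspr proteins are relatives of the neurexins encoded by the Cntnap genes. Of the 48795 genes in the deposited table, 9 were described here, namely the neurexophilin genes Nxph1, Nxph2, Nxph3 and Nxph4, the neurexin genes Nrxn2 and Nrxn3, and the Caspr genes Cntnap2, Cntnap3 and Cntnap4. They were found by their symbols, and all 9 were among the 22158 genes with enough reads to be tested. The set was chosen by the measured log2 fold changes between genotypes, since Nxph2 and Cntnap3 were among the genes lowest in Ctcf-null tissue. The difference between genotypes is therefore given for these 9 genes as a description, without a test.

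The tissue was the telencephalon of C57BL/6 mouse embryos at embryonic day 14. The Ctcf-null group (libraries Ctcf-null 1 and 2) carried a floxed Ctcf gene together with NestinCre, a Cre recombinase driven by Nestin sequences that is active in neural progenitors, so that cells of other origin keep the gene. The control group (controls 1 and 2) also carried the floxed Ctcf gene, with no Cre named. CTCF attaches to DNA through its zinc fingers and, with cohesin, anchors loops of chromatin, and the comparison asks which transcripts differ when it is lost. Libraries with the same number form a pair. The libraries held 25519331 to 43812558 reads assigned to genes, as recovered from the deposited values.

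Alpha-neurexins span the synaptic cleft through partners such as neuroligins, LRRTM proteins, cerebellins and latrophilins, and neurexophilins attach to a domain of alpha-neurexins that these partners leave free. Neurexins and Caspr proteins share laminin G-like domains. Caspr proteins usually work together with contactins, and Caspr2, the product of Cntnap2, gathers potassium channels along axons. In the forebrain Nxph1 and Cntnap4 are known from inhibitory interneurons, Nxph3 from the deepest cortical layer and Cajal-Retzius cells, and Nxph4 from the subplate.

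The targeted gene was lower in both Ctcf-null libraries. Ctcf stood at 38.89 and 61.96 normalized read counts in Ctcf-null 1 and 2, against 436.72 and 1133.21 in controls 1 and 2. All 10 telencephalon markers listed were kept by the filter, whereas none of 10 midbrain and hindbrain markers was, and the highest value of these was 18.68 normalized counts. Of 10 diencephalon markers 8 were kept, with a highest value of 1045.1, so transcripts of that list were present. Libraries of different pairs stood further apart than the 2 genotypes of a pair did. Log2 values of the 2 libraries of a pair correlated at r = 0.987 (pair 1) and 0.984 (pair 2) across tested genes. Libraries of different pairs, of the same genotype or not, correlated at 0.887 to 0.903. The median absolute difference between pairs was 0.84 on the log2 scale. The median log2 fold change of all tested genes, Ctcf-null over control, was -0.07.

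The stretches upstream of the start sites of Nxph2 and Cntnap3 are shown because these genes were lowest in Ctcf-null tissue, and that of Nxph1 because it is the only other neurexophilin gene with an entry in the RefSeq promoter table. Each is the 250 bases before a start annotated by RefSeq (GRCm38.p6), 5′ to 3′ on the strand of the gene, with every CpG dinucleotide in capitals. They lie at chr2:23320996-23321245 on the plus strand for Nxph2, at chr13:64903889-64904138 on the minus strand for Cntnap3 and at chr6:8949769-8950018 on the plus strand for Nxph1. The gene spans given below come from another annotation (GENCODE), and its starts differ for Nxph1 and Cntnap3. The whole Nxph1 stretch lies inside that gene's span, which starts at 8948431. Part of the Cntnap3 stretch lies inside the span of Cntnap3, which ends at 64903955.
Nxph2: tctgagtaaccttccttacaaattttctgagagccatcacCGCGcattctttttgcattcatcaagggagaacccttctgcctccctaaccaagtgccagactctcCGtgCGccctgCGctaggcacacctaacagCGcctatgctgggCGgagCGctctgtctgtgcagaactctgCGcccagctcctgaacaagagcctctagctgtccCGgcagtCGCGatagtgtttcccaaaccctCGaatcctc
Cntnap3: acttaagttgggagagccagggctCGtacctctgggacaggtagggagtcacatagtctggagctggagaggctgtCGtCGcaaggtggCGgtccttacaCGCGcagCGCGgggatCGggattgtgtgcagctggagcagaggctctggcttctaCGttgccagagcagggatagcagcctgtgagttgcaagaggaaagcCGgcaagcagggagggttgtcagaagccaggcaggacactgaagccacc
Nxph1: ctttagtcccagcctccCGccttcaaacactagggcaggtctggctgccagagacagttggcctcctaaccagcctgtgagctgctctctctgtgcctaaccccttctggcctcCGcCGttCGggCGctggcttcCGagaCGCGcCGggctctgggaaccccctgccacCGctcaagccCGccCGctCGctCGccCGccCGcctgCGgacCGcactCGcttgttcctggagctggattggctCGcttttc

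CpG dinucleotides numbered 13 in the Nxph2 stretch, 11 in that of Cntnap3 and 20 in that of Nxph1, against a median of 6 and quartiles of 2 and 16 over 32851 windows of the table. The table held 8 windows for 5 of the 9 genes (these 3, Cntnap2 and Nrxn3).

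Nxph2 was at a few percent of its control level in Ctcf-null telencephalon. Its gene (ENSMUSG00000069132.3, mm10 chromosome 2, 23321246 to 23401973, plus strand) encodes neurexophilin 2, a secreted neurexin ligand. It stood at 4.24 and 9.72 normalized read counts in Ctcf-null 1 and 2, against 164.55 and 207.63 in controls 1 and 2. Both Ctcf-null libraries were far below both controls, and the groups did not overlap. These values rest on 6 and 8 reads in the Ctcf-null libraries (exact 95% Poisson intervals 2.2 to 13.1 and 3.45 to 15.8) and on 185 and 166 reads in the controls. The Ctcf-null value was 2.58% of its control in pair 1 (exact interval 0.934 to 5.72) and 4.68% in pair 2 (1.99 to 9.44), so the pairs were alike within counting error. Reads without molecular identifiers are not independent molecules, and all such intervals cover counting error only. The log2 fold change was -4.98 in pair 1 and -4.28 in pair 2, and its mean of -4.63 was the lowest of all 22158 tested genes.

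The other neurexophilin genes were lower by much less. Nxph1 (ENSMUSG00000046178.3, chromosome 6, 8948431 to 9249032, plus strand) stood at 214.96 and 413.06 normalized counts in Ctcf-null 1 and 2, against 260.61 and 835.53 in controls 1 and 2. Each Ctcf-null library was below its own control, but Ctcf-null 2 was above control 1, so that the groups overlapped. The Ctcf-null value was 82.5% of control in pair 1 (exact interval 70 to 97.2) and 49.4% in pair 2 (43.3 to 56.4). These intervals do not meet, so the pairs differed in size by more than counting error.

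Nxph4 (ENSMUSG00000040258.6, chromosome 10, 127525473 to 127534559, minus strand), a subplate gene, followed a similar course, with 45.25 and 174.94 normalized counts in Ctcf-null 1 and 2, against 63.15 and 404 in controls 1 and 2. Its Ctcf-null value was 71.7% of control in pair 1 (50.3 to 102) and 43.3% in pair 2 (35.3 to 52.9), intervals that just meet. Nxph3 (ENSMUSG00000046719.7, chromosome 11, 95509845 to 95514570, minus strand), a gene of the deepest cortical layer, had 19.09 and 116.63 in Ctcf-null 1 and 2, against 29.35 and 193.87 in controls 1 and 2. It was at 65% of control in pair 1 (37.6 to 112) and at 60.2% in pair 2 (46.1 to 78.1), and the interval of pair 1, which rests on 27 and 33 reads, includes 100%. For both genes the second pair was several times higher than the first in either genotype, so the groups overlapped. The mean log2 fold changes were -0.65 for Nxph1, -0.66 for Nxph3 and -0.84 for Nxph4, with SDs between the 2 pairs of 0.52, 0.09 and 0.52.

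**Figure D1:**
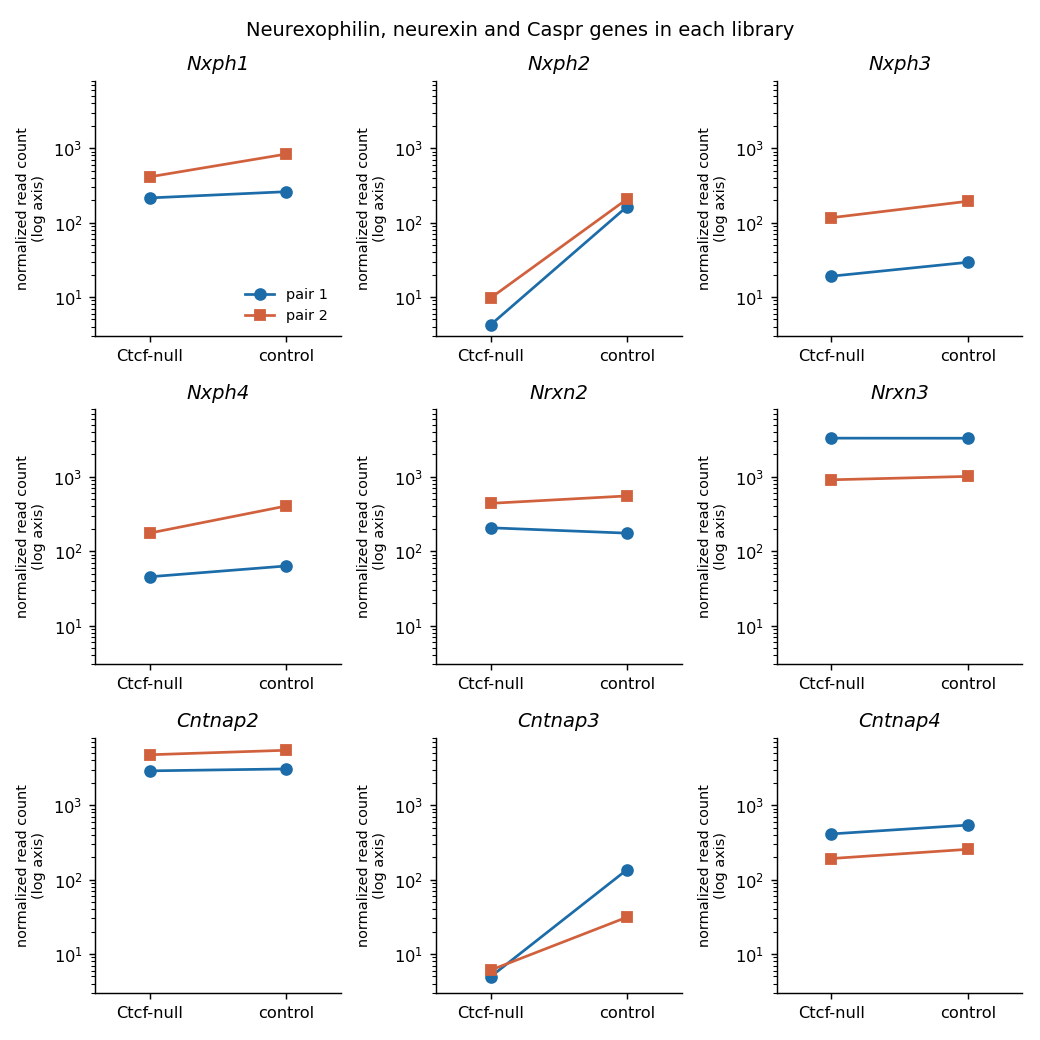
Normalized read counts (log axis) of the 9 genes in Ctcf-null and control libraries, with a line joining the 2 libraries of each pair. Nxph2 stands at 4.24 and 9.72 in Ctcf-null libraries and at 164.55 and 207.63 in controls, while for most other genes the distance between pairs exceeds the slope of the lines.

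The neurexin genes of the set, Nrxn2 and Nrxn3, had values near those of their controls. Nrxn3 (ENSMUSG00000066392.11, chromosome 12, 88722876 to 90334935, plus strand) stood at 3297.24 and 908.73 normalized counts in Ctcf-null 1 and 2, against 3289.16 and 1009.38 in controls 1 and 2. That was 100% of control in pair 1 (96 to 105) and 90% in pair 2 (81.4 to 99.6). Nrxn2 (ENSMUSG00000033768.16, chromosome 19, 6418731 to 6544169, plus strand) had 205.77 and 438.57 in Ctcf-null 1 and 2, against 174.33 and 551.6 in controls 1 and 2. It was higher in the Ctcf-null library of pair 1, at 118% of control (98.1 to 142), and lower in that of pair 2, at 79.5% (69 to 91.6). Its mean log2 fold change was -0.05 with the authors' scaling and 0.01 with TMM factors, so it has no stable direction. These gene totals do not separate the alpha and beta forms that each neurexin gene makes from its own promoters.

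Among the Caspr genes, Cntnap3 (ENSMUSG00000033063.7, chromosome 13, 64736182 to 64903955, minus strand), which encodes Caspr3, was lower in both pairs. It stood at 4.95 and 6.07 normalized counts in Ctcf-null 1 and 2, against 136.08 and 31.27 in controls 1 and 2. The groups did not overlap, although the 2 controls lay far apart. The values rest on 7 and 5 reads in the Ctcf-null libraries and on 153 and 25 in the controls. The Ctcf-null value was 3.64% of control in pair 1 (1.44 to 7.68) and 19.4% in pair 2 (5.81 to 51.7). Most control reads came from control 1. The log2 fold change was -4.53 in pair 1 and -2.19 in pair 2, with a mean of -3.36 (SD between the pairs 1.65).

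Cntnap4 (ENSMUSG00000031772.17, chromosome 8, 112570043 to 112882717, plus strand), which encodes Caspr4, had 410.83 and 191.95 normalized counts in Ctcf-null 1 and 2, against 539.89 and 255.16 in controls 1 and 2. Its Ctcf-null values, 76.1% of control in pair 1 (67.8 to 85.4) and 75.2% in pair 2 (60.7 to 93.1), were nearly the same in the pairs. Cntnap2 (ENSMUSG00000039419.17, chromosome 6, 45059357 to 47304213, plus strand) had the highest count of the 9 in pair 2, and in pair 1 stood below Nrxn3 in both genotypes, with 2891.36 and 4759.92 in Ctcf-null 1 and 2, against 3069.46 and 5468.44 in controls 1 and 2. It was at 94.2% of control in pair 1 (90 to 98.6) and at 87% in pair 2 (83.3 to 90.9). For both genes the pairs lay further apart than the genotypes, and the groups overlapped.

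Of the 9 genes, 7 were lower in the Ctcf-null library of both pairs, where 42.9% of all tested genes were. For 2 (Nxph2 and Cntnap3) both Ctcf-null values lay below both control values, where 7.64% of all tested genes did. A mean log2 fold change of -1 or less was found for the same 2, against 1.67% of tested genes. The median of the 9 was -0.65, against -0.07 over all tested genes. Since the set was proposed from this contrast, nothing is read from these counts.

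**Figure D2:**
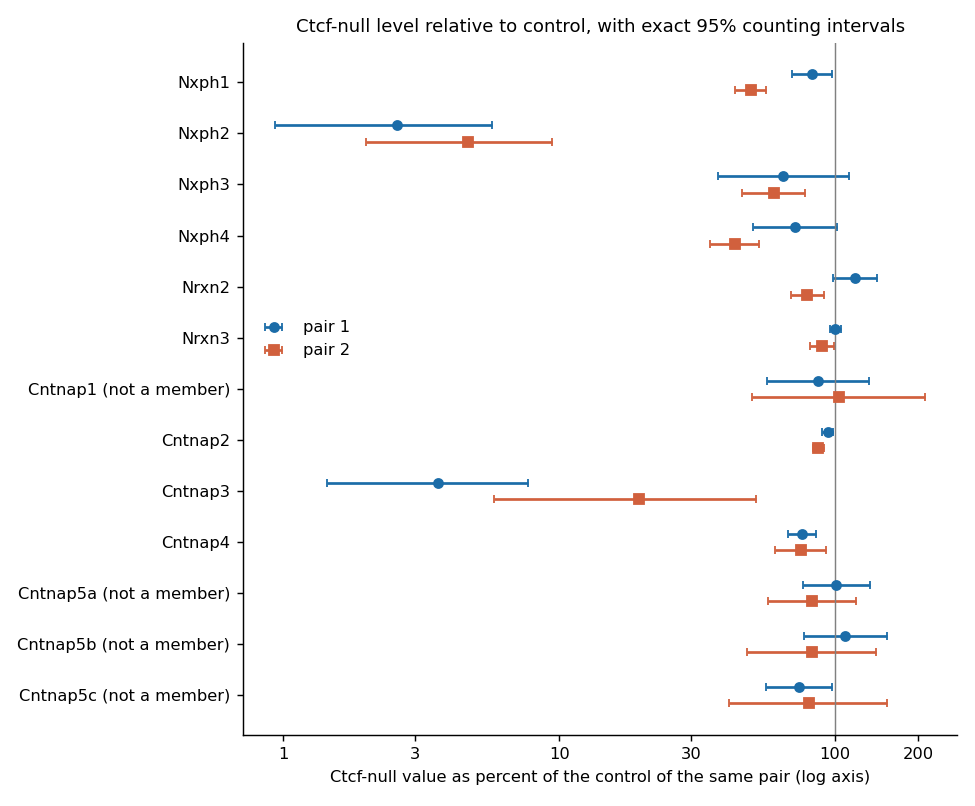
Ctcf-null value as a percentage of the control of the same pair (log axis) for 13 genes of the 3 families, with bars for exact 95% counting intervals and the grey line at 100%. Nxph2 (2.58% and 4.68%) and Cntnap3 (3.64% and 19.4%) stand apart from the other 11 genes, which lie between 43.3% and 118%.

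The 4 Caspr genes outside the set that were described did not pass the test in limma. Cntnap5c had 73.54 and 23.08 normalized counts in Ctcf-null 1 and 2, against 99.62 and 28.77 in controls 1 and 2 (log2 fold change -0.37, SE 0.24, limma adjusted p = 0.36). Cntnap5a had a log2 fold change of -0.12 and Cntnap5b of -0.08 (0.03 in edgeR), and Cntnap1, the Caspr of myelinated axons, had -0.08. These 4 genes rested on 17 to 120 reads per library, and their SEs of 0.20 to 0.30 leave changes of moderate size undetectable at this depth.

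Scaled by exon length, the families spanned a wide range of levels. Of the 13 genes shown, Cntnap2 was highest over all 4 libraries, at a mean of 395 normalized counts per kb of exon, followed by Nrxn3 at 169. The libraries of Cntnap2, at 282 to 534 per kb, lay above those of Nrxn3, at 72.1 to 262, without overlap. Nxph4 (mean 103 per kb), Nxph1 (90.7), Cntnap4 (55.6), Nxph3 (42.8), Nxph2 (37.4) and Nrxn2 (24.8) followed with libraries that overlapped from each gene to the next in this order. Over all 4 libraries Cntnap3 had a mean of 6.98 per kb and Cntnap1 of 5.01, the lowest of the 13. The place of Cntnap3 comes from the Ctcf-null libraries, where it averaged 0.863 per kb, against 13.1 in controls. In controls its mean was above those of Cntnap5b (9.09), Cntnap5a (7.7) and Cntnap1 (5.22), with control 2 alone at 4.9. Lengths are those of all annotated exons together, so a gene that uses few of them is understated.

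The place of Nxph2 among the neurexophilins differed between genotypes in pair 1 and not in pair 2. In both Ctcf-null libraries it was the lowest of the 4 per kb, at 1.64 and 3.77, with Nxph3 next at 9.09 and 55.6. In control 1, at 63.8 per kb, it was the highest, above Nxph1 at 54.8, whereas in control 2, at 80.5, it was again the lowest, below Nxph3 at 92.4. The order of the neurexophilin genes in controls thus depended on the library.

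**Figure D3:**
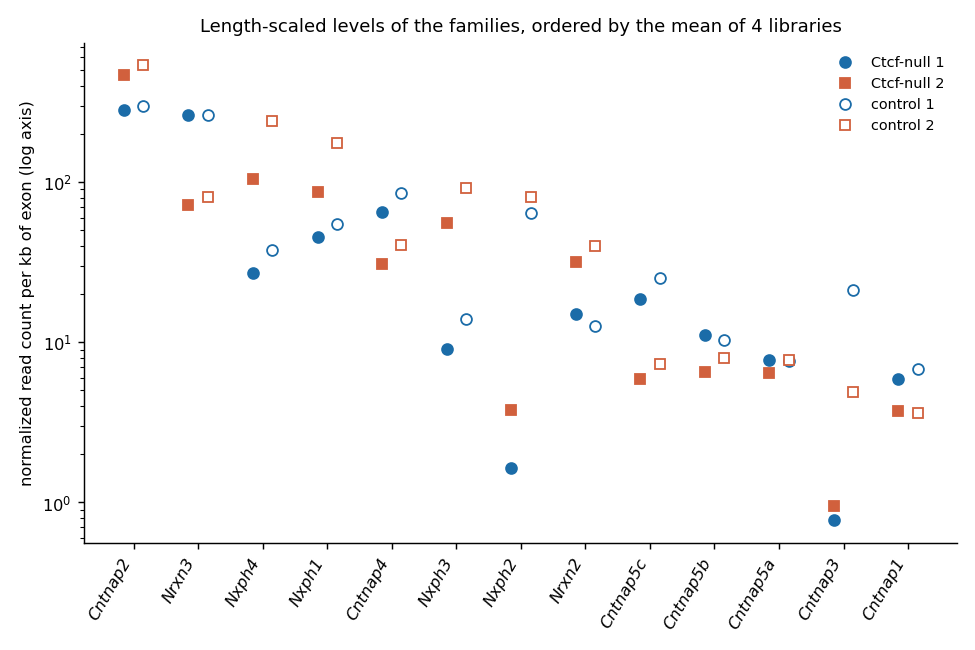
Normalized read counts per kb of exon (log axis) for the 13 genes, ordered by the mean of the 4 libraries, with filled marks for Ctcf-null libraries, open marks for controls, circles for pair 1 and squares for pair 2. Nxph2 and Cntnap3 are the genes whose filled marks lie well below their open ones.

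The neurexophilin genes and Cntnap3 share no long exact stretch of sequence with other transcripts. None of the 50-base windows in the annotated transcripts of Nxph1, Nxph2, Nxph3, Nxph4 or Cntnap3 occurs in a transcript of another gene on either strand. For Nrxn2, Nrxn3 and Cntnap4 the share of such windows was 5.29%, 3.04% and 7.29% and for Cntnap2 it was 0.722%. Since no strand information is named, the values of these 4 genes may hold some reads of their partners.

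In limma the share of pathway genes around the families that was called was near that of genes in general. Of 56 tested partner and family genes in 6 lists, 5 fell and 4 rose in limma (16.1%), where 13.7% of all tested genes were called (10.1% lower and 3.67% higher in Ctcf-null tissue). Their median log2 fold change was 0.04. In edgeR with the pair as a block, 5 fell and 6 rose. These 11 of 56 are a larger share than the 11.9% of all tested genes called there, so the comparison depends on the method. The difference between these shares was not tested.

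Of the extracellular partners other than neuroligins, 3 fell, 3 rose and 13 of 19 did not pass, with a median of 0.04. Lrrtm3 and Lrrtm4, which encode postsynaptic leucine-rich repeat proteins, fell. Lrrtm3 had 232.64 and 297.65 normalized counts in Ctcf-null 1 and 2, against 451.84 and 494.06 in controls 1 and 2 (log2 fold change -0.84, SE 0.12, limma adjusted p = 3.9e-05). Lrrtm4 had 128.69 and 95.98 in Ctcf-null 1 and 2, against 241.04 and 186.37 in controls 1 and 2 (log2 fold change -0.93, SE 0.15, limma adjusted p = 0.00027). In both, the Ctcf-null libraries were below the controls without overlap. Their relative Lrrtm1 rose, with 470.93 and 2291.27 in Ctcf-null 1 and 2, against 341.55 and 1562.23 in controls 1 and 2 (log2 fold change 0.51, SE 0.09, limma adjusted p = 0.00049), while Lrrtm2 was at -0.02 and did not pass.

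The latrophilin gene Adgrl3 rose, with 651.95 and 472.59 normalized counts in Ctcf-null 1 and 2, against 464.29 and 277.67 in controls 1 and 2 (log2 fold change 0.63, SE 0.11, limma adjusted p = 0.00052). The remaining 2 that passed are named beyond the rule, after their values were seen. They were Fam19a1, a secreted protein gene, which fell (log2 fold change -0.67), and the cerebellin gene Cbln1, which rose (0.77). Cerebellins link neurexins to glutamate receptors of the delta type. Of 3 neuroligin genes, Nlgn1 fell, with 535.28 and 398.48 in Ctcf-null 1 and 2, against 734.68 and 504.07 in controls 1 and 2 (log2 fold change -0.40, SE 0.10, limma adjusted p = 0.011). Nlgn2 at 0.00 and Nlgn3 at -0.05 did not pass.

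Contactins and other Caspr partners gave no call, with 14 of 14 genes not passing and a median of 0.06. Cntn2, the contactin that pairs with Caspr2, had 3745.54 and 4135.47 normalized counts in Ctcf-null 1 and 2, against 3958.02 and 3621.03 in controls 1 and 2. None of the 10 cytoplasmic neurexin partners passed in limma (median 0.12), although 2 rose in edgeR with the block. These were Cask, a scaffold kinase (log2 fold change 0.27, edgeR adjusted p = 0.02), and Sdcbp, the syntenin gene (0.21, edgeR adjusted p = 0.037). Of 6 regulators of neurexin splicing, Khdrbs2 fell, with 310.42 and 1039.94 in Ctcf-null 1 and 2, against 455.39 and 1769.86 in controls 1 and 2 (log2 fold change -0.66, SE 0.09, limma adjusted p = 6.8e-05). Nova1 rose, with 968.74 and 880.79 in Ctcf-null 1 and 2, against 776.48 and 700.44 in controls 1 and 2 (log2 fold change 0.32, SE 0.09, limma adjusted p = 0.018). Without the pair as a block 0 of these 56 genes passed in limma and in edgeR, and 0 had an unadjusted p under 0.05 in either.

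**Figure D4:**
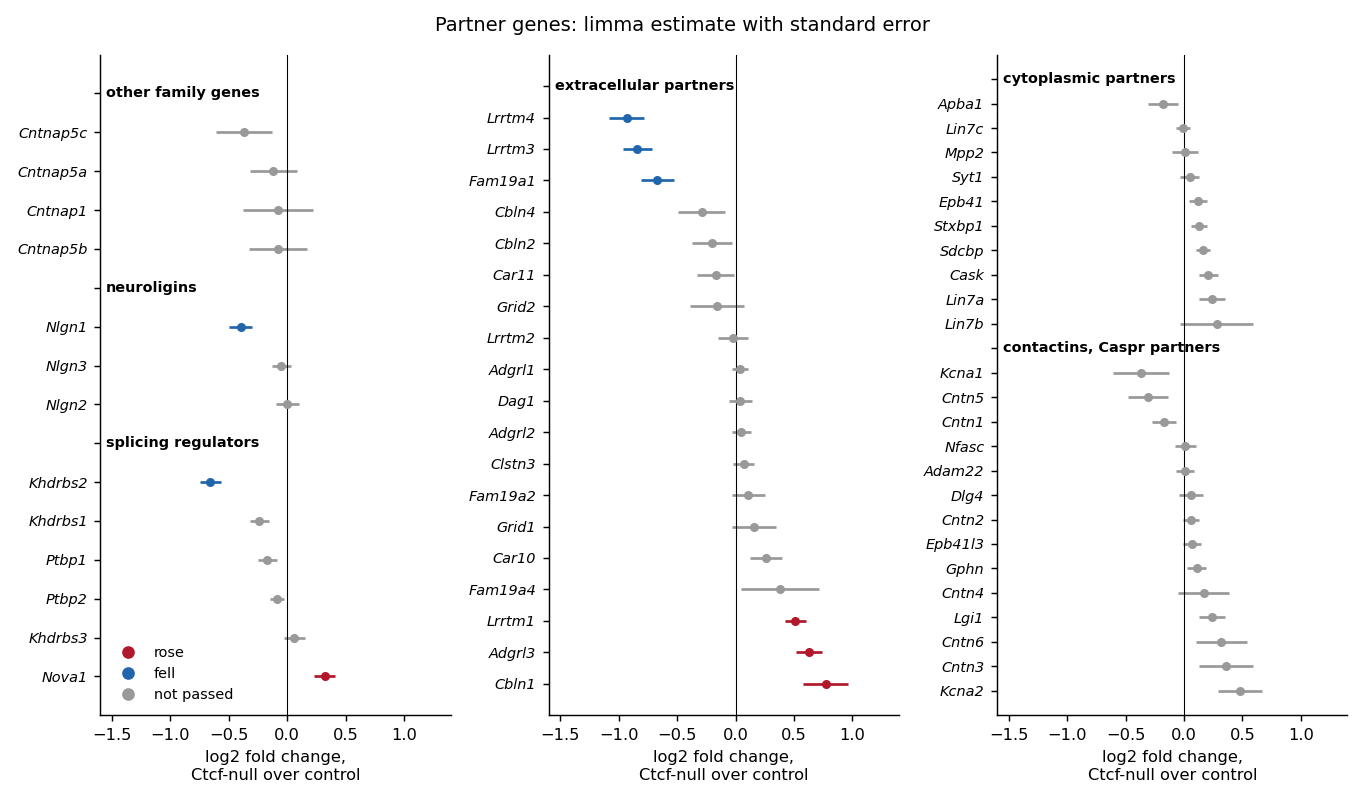
Log2 fold change, Ctcf-null over control, of the partner genes by list, with bars for the standard error of the limma fit and colours for genes that rose, fell or did not pass. The 9 coloured genes lie on both sides of 0, among them Lrrtm3 at -0.84 and Lrrtm1 at 0.51.

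No tested gene beside Nxph2 or Cntnap3 passed in limma. Of 11 tested genes with any part within 500 kb of Nxph2, 0 passed in limma and 0 in edgeR, with log2 fold changes of -0.37 to 0.13. Of all tested genes 13.7% passed in limma and 11.9% in edgeR, and so few neighbours cannot tell 0 from these shares. None of these 11 had an unadjusted limma p under 0.05. Of 8 within 500 kb of Cntnap3, 0 passed in limma (smallest adjusted p = 0.069), a number as small against the same share. Of these 8, 4 had an unadjusted limma p under 0.05, as did 5998 of all 22158 tested genes. In edgeR with the block 1 of these 8 rose, the cathepsin L gene Ctsl (log2 fold change 0.25, edgeR adjusted p = 0.039). It is named after its values were seen. Neither Nxph2 nor Cntnap3 overlaps another annotated gene of the table.

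Counted over all 9 genes, 21 of 154 tested neighbours fell and 0 rose in limma (13.6%). Of all tested genes 10.1% fell and 3.67% rose (13.7% in either direction). With TMM factors 11 neighbours fell and 0 rose, where 1310 of all 22158 tested genes fell and 932 rose. In edgeR with the block 15 neighbours fell and 2 rose, where 1580 of all tested genes fell and 1063 rose. Near Nxph4, 6 of 39 fell. Zbtb39, a zinc finger gene whose start lies 205 kb upstream, had 19.8 and 34.02 normalized counts in Ctcf-null 1 and 2, against 75.6 and 87.56 in controls 1 and 2 (log2 fold change -1.61, SE 0.25, limma adjusted p = 0.00018). B4galnt1, a ganglioside synthesis gene 369 kb downstream, had 53.03 and 245.41 in Ctcf-null 1 and 2, against 120.96 and 898.06 in controls 1 and 2 (log2 fold change -1.52, SE 0.16, limma adjusted p = 1.3e-06). Both were further from 0 than Nxph4 itself. Near Nxph3, 5 of 21 fell, with -0.33 (Slc35b1) to -0.74 (Ngfr), and near Nrxn2, 8 of 49 fell, with -0.22 (Trmt112) to -0.79 (Ehd1). Single neighbours fell near Nxph1 (Ica1, -0.33) and Cntnap2 (Ezh2, -0.29). These counts by gene are those of limma. In edgeR with the block 5 fell near Nxph4, 5 near Nxph3, 1 near Cntnap2 and 0 near Nxph1. Near Nrxn2, 4 fell and 1 rose there. Trmt112 (edgeR adjusted p = 0.13) and Ica1 (edgeR adjusted p = 0.052) did not pass in edgeR.

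**Figure D5:**
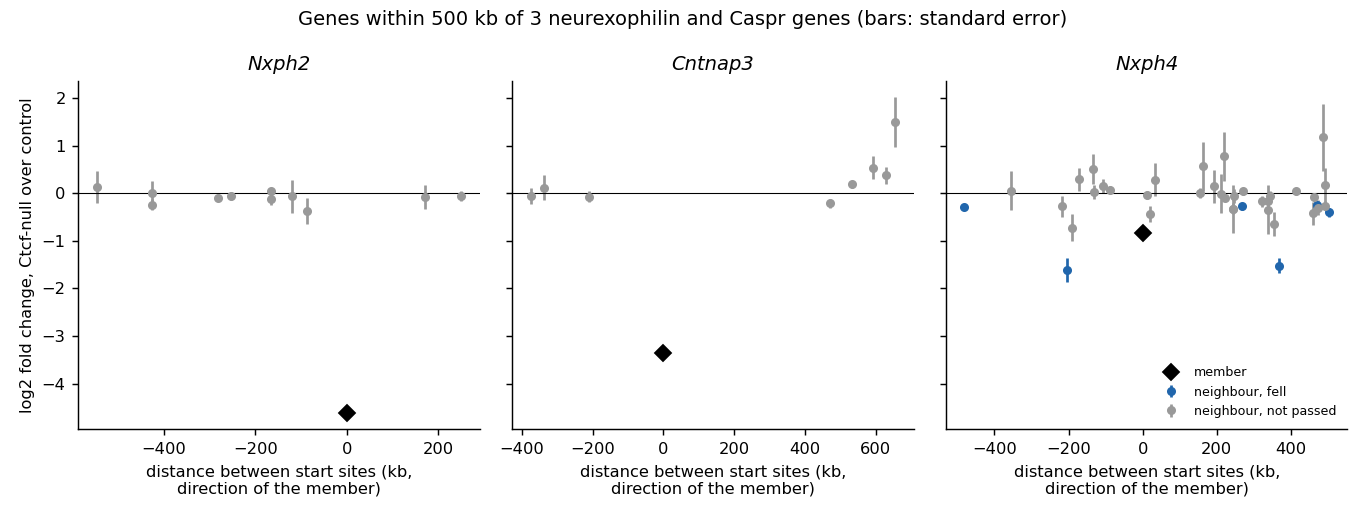
Log2 fold change, Ctcf-null over control, of tested genes within 500 kb of Nxph2, Cntnap3 and Nxph4, against the distance between start sites in kb, with negative distances upstream of the member and bars for the standard error. The black diamonds of Nxph2 (-4.63) and Cntnap3 (-3.36) lie far below their neighbours, which did not pass, whereas Zbtb39 (-1.61) and B4galnt1 (-1.52) lie below Nxph4.

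Part of the markers of cells known to express some of these genes fell in the same comparison. In a list of 20 interneuron and medial ganglionic eminence markers, 11 fell, 0 rose and 9 did not pass, where 10.1% of all tested genes fell, with a median log2 fold change of -0.54 (-0.36 in pair 1 and -0.81 in pair 2). Their summed level was 8041 and 15136 normalized counts in Ctcf-null 1 and 2, against 11878 and 29874 in controls 1 and 2, and none of them had 0 reads throughout. Sst, the somatostatin gene, fell by 3.17 on the log2 scale (SE 0.09) and Npy, the neuropeptide Y gene, by 2.10 (SE 0.10). Among the 9 that did not pass, Gad1, a GABA synthesis gene, was at 0.05, Lhx8 at 0.03 and Satb1 at 0.21, and Nkx2-1 was at 0.54 in pair 1 and -1.77 in pair 2. These 6 are named after their values were seen. In these bulk samples fewer cells of a type and less RNA per cell cannot be told apart, and the part of these cells in the values of Nxph1, Nxph2 and Cntnap4 was not tested.

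The other lists held further calls in limma, where 10.1% of all tested genes fell and 3.67% rose. Differences between lists were not tested, and Dlx2, Tbr1 and Foxp2 each stand in more than 1 list. Of 12 tested subplate and deep-layer neuron markers 3 fell and 1 rose (median -0.12), with sums of 6264 and 8728 in Ctcf-null 1 and 2, against 8037 and 12816 in controls 1 and 2. Of 11 striatal lineage markers 5 fell and 0 rose (median -0.41, with -0.42 in pair 1 and -0.43 in pair 2, and sums of 6689 and 7732 in Ctcf-null 1 and 2, against 8502 and 11071 in controls 1 and 2). Of 10 Cajal-Retzius cell markers 1 fell and 1 rose (median 0.09), with sums of 3287 and 2980 in Ctcf-null libraries, against 2905 and 3261 in controls. Of the 10 telencephalon markers 6 fell and 0 rose (median -0.29, with -0.20 in pair 1 and -0.38 in pair 2), whereas in edgeR with the block 5 fell and 1 rose. Their sums were 35008 and 38092 in Ctcf-null 1 and 2, against 43187 and 46757 in controls 1 and 2. Most of these sums was Neurod6, at 28697.2 and 25180.9 in Ctcf-null 1 and 2, against 35714.7 and 29513.5 in controls 1 and 2. Of 8 tested markers each, 1 rose and 1 fell for diencephalon (median 0.15), 1 rose for microglia (0.26), 1 fell for vessels (-0.15), 0 passed for meninges (0.00) and 2 rose for choroid plexus (0.22). The choroid plexus sum was 96185 and 36536 in Ctcf-null 1 and 2, against 73482 and 25490 in controls 1 and 2. Nearly all of it was 1 gene, Ttr, at 94451.8 and 34807.7 in Ctcf-null 1 and 2, against 72063.5 and 23920 in controls 1 and 2. The part of any of these cells in the values of the 9 genes was not tested.

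The gene whose pattern over the 4 libraries was most like that of Nxph2 was Ctcf, the targeted gene. Likeness was the Euclidean distance between log2(value + 1) profiles centred within each gene, which was 1.13 for Ctcf. Next came the transcript A330048O09Rik (1.69) and the clustered protocadherin genes Pcdhb11 (1.79), Pcdhb19 (1.99) and Pcdhb9 (1.99). For Cntnap3 the nearest were Gm28512 (1.27), Fam196b (1.34), Def8 (1.34), Pcdhb15 (1.47) and Pcdhb20 (1.48). Nxph2 and Cntnap3 were chosen for their low Ctcf-null values, so the genes nearest by this measure are bound to be others much lower there. Nothing is read from these likenesses.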

How the data were processed

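RNA of the telencephalon was sequenced in 4 libraries, 2 per genotype. Per the file headers, the authors' values are normalized read counts, a signal that the authors scaled per library and did not divide by gene length. The submitters' processing notes name the aligner STAR 2.5.3, the mm10 assembly and DESeq2. They leave out which program counted reads per gene and on which annotation, and no strand information is named. Per the file headers, the deposited log2 fold changes are given per pair and as an average. They equal log2 of (Ctcf-null + 1)/(control + 1), within 0.008.

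Dividing by the value of 1 read returned whole reads for 99.972% to 100.000% of the nonzero values, within 0.005. These recovered reads served for the filter (filterByExpr, edgeR 4.0.16, 22158 of 48795 genes kept), for counting intervals and for the alternative tests. The recovered reads gave 11.9% of genes called with edgeR. The test was limma 3.58.1 (R 4.3.3) with its trend option, applied to log2(value + 1) of these counts, with pair and genotype as terms, two-sided, Benjamini-Hochberg adjusted over the 22158 genes, threshold 0.05. Fold changes on that scale understate the change of genes with low counts. The tests were checked on simulated counts.

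The block rests on the submitters' design text, which speaks of 2 pairs; what a pair shares is not stated. Within each group every library was centred on its mean, and the deviations of libraries that share a number then correlated at r = 0.923 across genes, which are not independent replicates. The fit has 1 residual degree of freedom and borrows its spread from all genes. With the block, the p-values reflect how far the fold changes of the 2 pairs disagree, moderated by that borrowed spread. They do not cover the difference between the pairs, which the block removes. The labels do not say whether each library is a separate embryo, so the spread that is measured may be technical. Gene coordinates and exon lengths came from GENCODE M21 (GRCm38, the assembly also called mm10), matched by identifier for 48349 genes. Promoter sequences came from RefSeq (GRCm38.p6).

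The 9 genes and all lists were chosen with earlier results of these data known. Up to 4 genes past the threshold were to be named per partner list, by smallest p, together with each neighbour past it or a range over them, and the 5 genes nearest in pattern to Nxph2 and to Cntnap3. Alternatives were another pseudocount (0.5 or 5), no filter, TMM factors, edgeR and DESeq2 1.42.0 on recovered reads, no block, and leaving out each library. One item is not reported here.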

Additional observations from a re-analysis of the deposited data

How the results depend on the processing

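Without the replicate block 0 genes, 0 partner genes and 0 neighbours of the 9 genes passed in limma, against 3041, 9 and 21 with it, and 170 genes had an unadjusted p under 0.05. edgeR without the block also gave 0, 0 and 0 (174 genes with an unadjusted p under 0.05). Leaving out single libraries, also without the block, gave 0 to 2 genes, 0 to 0 partner genes and 0 to 0 neighbours. DESeq2 with the block called 832 genes, 5 partner genes and 5 neighbours, and TMM factors left 11 neighbours. The other planned settings kept these counts within 1.5 times. Calls higher in Ctcf-null tissue were 26.7% with the authors' scaling (813 against 2228), 41.6% with TMM factors (932 against 1310) and 40.2% in edgeR with the block (1063 against 1580). Of the 30 partner genes and neighbours that passed, 24 also passed in edgeR with the block, 20 with TMM factors and 10 in DESeq2, and none changed sign under the alternatives that keep 4 libraries. The causes were not tested. With a pseudocount of 5 the log2 fold change was -4.03 for Nxph2 and -2.77 for Cntnap3, and in edgeR with the block it was -4.76 for Nxph2 and -4.03 for Cntnap3. The low reads of both in Ctcf-null libraries limit the precision of their folds.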

Other observations

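The difference between the pairs was larger than that between genotypes for 7 of the 9 genes, the exceptions being Nxph2 and Cntnap3. On the log2(value + 1) scale, pair 1 over pair 2, Nxph3 was at -2.55 in Ctcf-null libraries and -2.68 in controls, and Nxph4 at -1.93 and -2.66. Nrxn3 ran the other way, at 1.86 in Ctcf-null libraries and 1.70 in controls, as did Cntnap4, at 1.09 and 1.08. Nrxn2 was at -1.09 in Ctcf-null libraries and -1.66 in controls, so that the neurexin genes Nrxn2 and Nrxn3 differed between pairs in opposite directions in either genotype. Cntnap3 was the only gene of the 9 whose sign differed between genotypes, at -0.25 in Ctcf-null libraries and 2.09 in controls. The value of -0.25 rests on 7 and 5 reads, whose exact Poisson intervals overlap widely (2.81 to 14.4 and 1.62 to 11.7). Its sign is therefore not determined. Of all tested genes, 24.7% had a mean difference between pairs of 1.5 or more in size.

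Base composition varied along with this difference. The longest transcripts of Nrxn2, Nxph4 and Nxph3 held 62.4%, 61.4% and 60.2% G and C, and these 3 genes were at -1.37, -2.29 and -2.62 in the mean of both genotypes. The other 6 held 37.6% to 47.7% and were at -1.31 to 1.78. Among these, Nxph1 (46.7%) at -1.31, Cntnap2 (44.5%) at -0.78 and Nxph2 (37.6%) at -0.68 were negative too. Nrxn3 (1.78), Cntnap4 (1.09) and Cntnap3 (0.92) were positive. Across 22020 tested genes the difference between pairs and the GC share correlated at r = -0.38 and rho = -0.35, as a description over genes that share the same 4 libraries. Its median was -1.16 for 4088 genes with at least 55% and 0.28 for 6402 genes under 45%. The sources used here do not say what differs between the pairs, and the part of base composition was not tested.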
